A study of Mus musculus with 6 samples.

Results

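Mitotic kinesins, spindle proteins and the enzymes of mitotic entry and exit were examined in primary mouse myoblasts, the dividing precursors of skeletal muscle fibres, with and without an active form of beta-catenin. The set holds 45 genes chosen by name, and 44 of them carried a symbol in the platform annotation and were measured, of 23279 named genes in all. The remaining gene, Ccnb1, is described apart because its row was named only through its Entrez number. All cells came from limb muscles of mice of strain C57bl6N that carried Pax7-CreERT2, a tamoxifen-inducible Cre recombinase driven from Pax7, and 1 beta-catenin allele with loxP sites around exon 3. Removal of that exon leaves a protein that lacks the phosphorylation sites used to mark it for destruction. The 3 activated cultures received 4-OH tamoxifen in ethanol and the 3 control cultures received ethanol alone, so control cells carried the same Cre and the same loxP allele and no group received tamoxifen without the allele. Cells had been expanded for 5 passages in 20% FBS with bFGF at 2 ng/ml and were then held for 24 hours in 2% HS, a low-serum medium in which myoblasts leave the cell cycle and form myotubes. Values are log2 expression levels per probe set as deposited, 1 array per culture.

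Progress through mitosis is driven by cyclin-dependent kinase 1 with B-type cyclins and is ended when the anaphase-promoting complex, a ubiquitin ligase activated by Cdc20, destroys those cyclins and securin. Kinesins of this set slide, cross-link or shorten spindle microtubules, and the central spindle proteins then direct the cleavage furrow. Most of these genes are transcribed late in the cell cycle, in G2 and mitosis, and are silenced when cells become quiescent or differentiate. In muscle, exit from the cell cycle precedes the formation of multinucleated fibres.

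The 6 arrays had median log2 values of 4.08 to 4.37 and SDs over genes of 1.72 to 2.13. The myoblast markers Pax7 (8.05 ± 0.32 in control and 7.45 ± 0.48 in activated cultures, mean ± SD, n = 3), Myod1 (9.33 ± 0.59 and 9.48 ± 0.73) and Des (9.29 ± 0.52 and 10.85 ± 0.51) lay above the array medians in both groups. Cdh15 and Vcam1 did so as well. Myf5 was nearer to the medians (4.66 ± 0.62 and 5.04 ± 0.37), and in control replicate 3 it lay below, at 4.04 against 4.35. Replicate numbers in the sample titles were shared between the groups, and the arrays were also compared as numbered pairs. The cultures are labelled as independent, without a statement that each came from its own mouse, and all p-values therefore reflect variation among the 6 cultures alone. In bulk RNA, fewer dividing cells and less RNA per dividing cell cannot be told apart.

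Mitotic genes were lower in activated cultures almost throughout the set. Of 44 members 42 had a lower mean in activated cultures (59.7% of all genes did) and 2 a higher one, with a median log2 difference of -1.70 against -0.08 over all genes. The members differed by at least 2-fold downward in 40 cases (1.9% of all genes) and by at least 4-fold in 15 (0.176%, or 41 genes in all). Those 15 were Kif2c, Kif4, Kif11, Kif15, Kif20b, Kif23, Kifc1, Hmmr, Tpx2, Prc1, Troap, Tacc3, Anln, Cep55 and Mki67. In 33 members the highest activated value was under the lowest control value (7.4% of all genes), and in 0 members the lowest activated value was over the highest control value (5.4%). An unadjusted p under 0.05 was reached by 36 members, all lower (limma; 3.42% of all genes were lower at that level and 4.44% higher, 796 and 1034 genes, which became 537 and 1317 after centring each array on its median and 615 and 1215 after scaling the spread of the arrays). No member passed an adjusted p of 0.05 over all 23279 genes (limma, 0 members and 0.0% of all genes; adjusted p of the members from 0.131 to 0.940). When the replicate number was added as a block, 2 members fell, Troap and Ccdc18, among 3 genes that fell in the whole table (0.0129%), while 28 genes rose (0.12%). After quantile normalization the same block called neither (limma, adjusted p = 0.0641 for Troap and 0.0671 for Ccdc18). Without activated replicate 3, which had the highest activated value for 38 members, 6 members passed unblocked as lower, among 10 genes in all (0.043%): Kif4, Kif11, Kif15, Kif23, Anln and Cep55. Without pair 3, the pair in which the members' median difference was smallest, the blocked fit called 34 members lower, among 212 genes (0.911%). Without pair 1 or pair 2 it called 0. These fits without a pair rest on few arrays, from which the variance is poorly estimated.

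**Figure D1:**
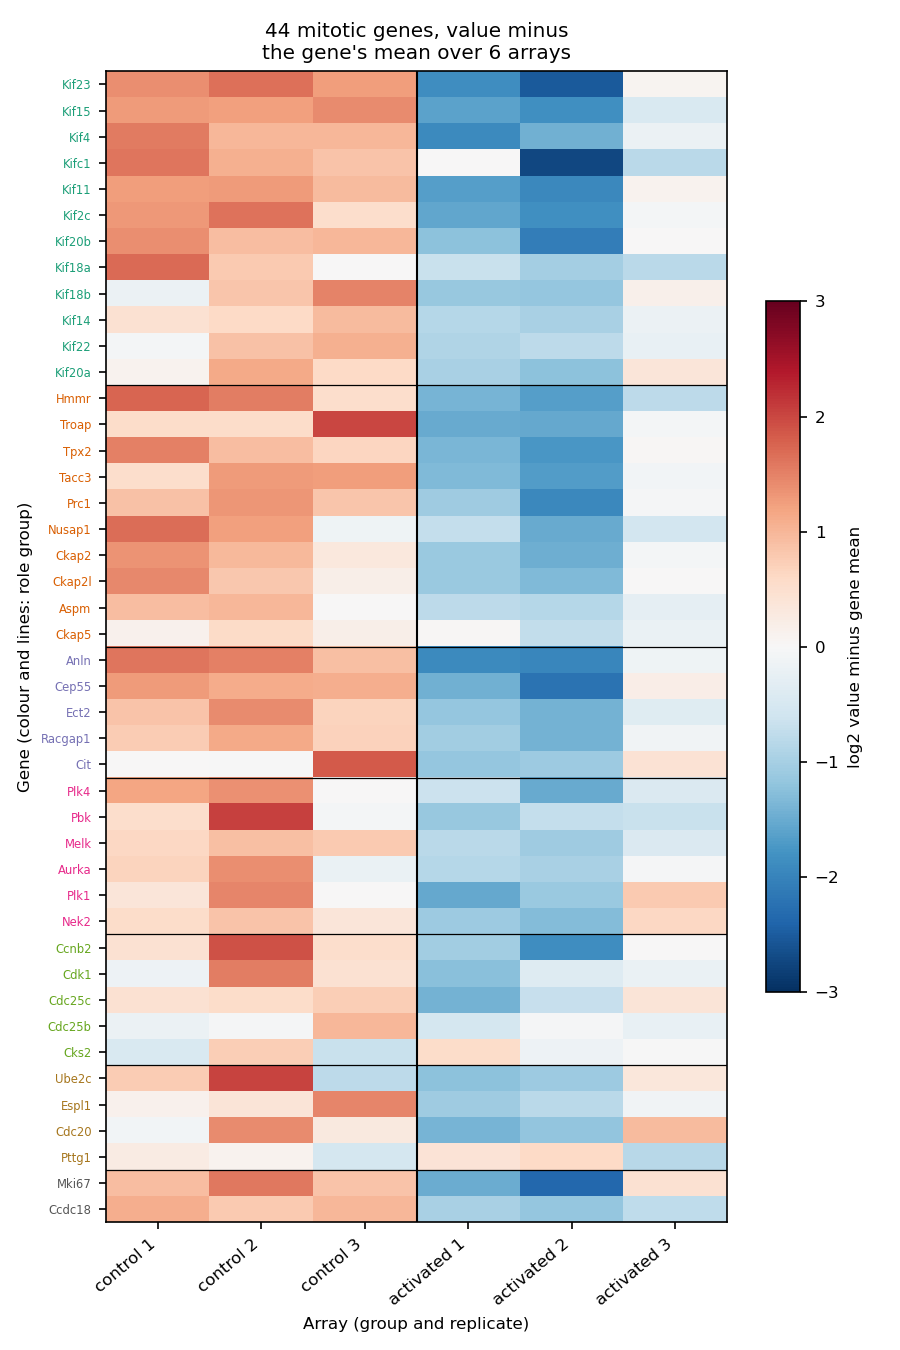
Each row is 1 of the 44 measured mitotic genes, ordered by role group and then by difference, and each column is 1 array; colour gives the log2 value minus that gene's mean over the 6 arrays. Control arrays are mostly above the gene mean (red) and activated replicates 1 and 2 mostly below it (blue), while activated replicate 3 lies nearer to the mean.

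Genes of late mitosis commonly carry a cell cycle genes homology region (CHR) near the start of transcription, bound by the MuvB core of the DREAM repressor complex and of its activating counterpart, together with CCAAT boxes bound by NF-Y. Promoter windows from RefSeq (GRCm38.p6), 250 bases before to 50 after each annotated start, were found for 41 of the 45 listed genes, Ccnb1 included. The CHR letters TTTGAA, on either strand, occurred in 28 of the 41 genes, or 68.3%, against 20.2% of all 27025 genes with a window and 17.9% of all windows of that length. The CCAAT letters, on either strand, occurred in 28 genes as well, 68.3% against 41.1%, and a window with both elements in 23 genes, 56.1% against 7.97%. For comparison, TCF/LEF cores, the letters bound by the partners of beta-catenin (CTTTGAT or CTTTGAA on either strand, the latter containing the CHR letters), occurred in 6 genes, 14.6% against 9.88%. In Kif14, Ckap2l, Aurka, Kif15 and Cdk1 these cores were CTTTGAA and overlapped a CHR match, so the 2 counts are not independent. Only in Ube2c did the core lie apart from the CHR match. CHR matches of the members gathered around the start: 24 genes had one whose first base lay within 50 bases of it, 58.5% against 5.72% of all genes, a distance chosen after the positions were seen. The members with a CHR match had a median log2 difference of -1.85 (n = 28) and the other named and measured genes of -1.61 (n = 12), with overlapping ranges of -2.86 to -0.60 and -2.08 to 0.26. The order was the opposite for CCAAT boxes, with -1.43 for genes that had one (n = 27) and -1.92 for the others (n = 13), and for windows with both elements, with -1.62 (n = 23) and -1.84 (n = 17). None of these differences was tested. A match is a run of letters and does not show that a factor binds there.

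The promoters below were chosen to show the arrangements found among the members. Kif23, Kif11, Hmmr and Racgap1 carry the CHR letters and CCAAT boxes, and Kif15, with the widest gap between the groups, carries the CHR letters and no CCAAT box, as do Anln, Cep55 and Kif20b. Troap carries CCAAT boxes and no CHR match, and Ccdc18, with the smallest p, has no match of either kind in its window, nor has Melk. Each is written 5′ to 3′ on the gene's strand from 100 bases before the annotated start to 50 from it, with CHR and CCAAT letters or their reverse complements in capitals. Positions are GRCm38.p6.
Kif23 (chr9:61946750-61946899, minus strand): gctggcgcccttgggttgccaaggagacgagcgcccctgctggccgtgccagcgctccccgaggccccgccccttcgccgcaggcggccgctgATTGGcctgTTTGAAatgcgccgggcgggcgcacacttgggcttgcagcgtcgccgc
Kif11 (chr19:37376282-37376431, plus strand): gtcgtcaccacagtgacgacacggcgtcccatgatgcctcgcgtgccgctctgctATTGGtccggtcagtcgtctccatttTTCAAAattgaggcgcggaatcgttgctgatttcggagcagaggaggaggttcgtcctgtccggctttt
Hmmr (chr11:40733388-40733537, minus strand): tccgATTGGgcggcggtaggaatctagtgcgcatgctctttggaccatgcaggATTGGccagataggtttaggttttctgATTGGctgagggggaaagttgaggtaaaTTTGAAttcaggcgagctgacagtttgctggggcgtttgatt
Racgap1 (chr15:99651607-99651756, minus strand): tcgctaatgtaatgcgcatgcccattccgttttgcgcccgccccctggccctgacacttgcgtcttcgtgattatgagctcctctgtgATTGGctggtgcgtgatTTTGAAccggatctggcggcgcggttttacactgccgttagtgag
Kif15 (chr9:122950981-122951130, plus strand): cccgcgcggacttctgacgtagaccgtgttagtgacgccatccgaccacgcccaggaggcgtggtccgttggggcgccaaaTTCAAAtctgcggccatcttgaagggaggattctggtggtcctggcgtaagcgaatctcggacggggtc
Troap (chr15:99074873-99075022, plus strand): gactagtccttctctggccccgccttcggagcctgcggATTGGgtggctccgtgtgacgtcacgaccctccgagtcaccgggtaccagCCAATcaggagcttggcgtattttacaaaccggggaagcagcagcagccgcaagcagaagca
Ccdc18 (chr5:108132814-108132963, plus strand): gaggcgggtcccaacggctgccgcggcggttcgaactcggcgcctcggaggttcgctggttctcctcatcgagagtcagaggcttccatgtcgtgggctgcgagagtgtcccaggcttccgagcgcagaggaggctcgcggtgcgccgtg
With the start counted as 0, the CHR letters begin at base 2 in Kif23, 8 in Hmmr, 5 in Racgap1 and -19 in Kif11, each downstream of a CCAAT box that begins at -7, -20, -12 and -45.

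**Figure D2:**
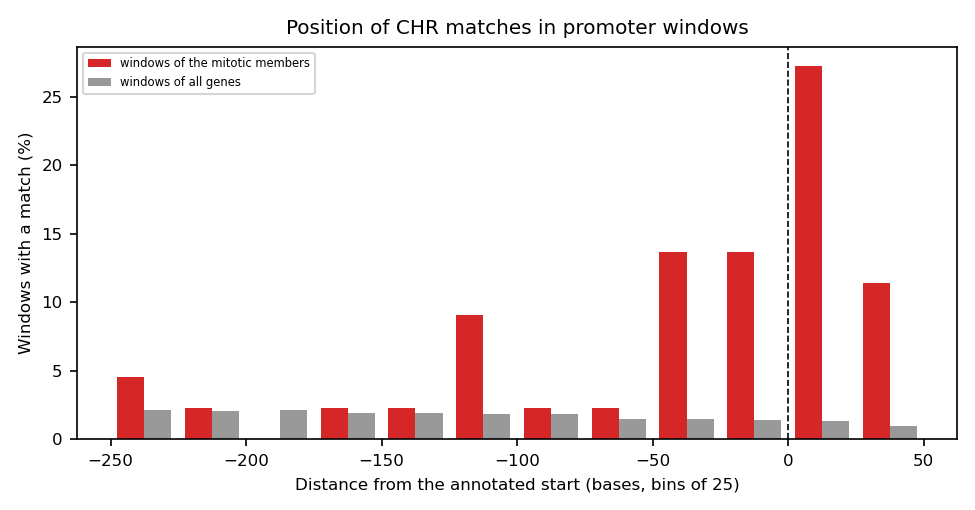
Bars give the percentage of promoter windows with a CHR match whose first base falls in each bin of 25 bases, for the 44 windows of the mitotic genes (red) and for all 32851 windows (grey); the dashed line is the annotated start. The tallest red bar is the bin from 0 to 25, at 27.3% against 1.31% of all windows.

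All 12 kinesins had lower means after activation. Their median log2 difference was -2.25, and for 10 of them the groups did not overlap (7.4% of all genes lay lower without overlap). Kif23, whose CHR letters begin just after the start, is the motor subunit of the centralspindlin complex of the cleavage furrow and had the largest difference of the set over all 6 arrays. Control replicates 1, 2 and 3 read 8.18, 8.42 and 8.02, and activated replicates 1, 2 and 3 read 4.92, 4.25 and 6.85, 7.28-fold lower (-2.86 ± 0.61 on the log2 scale, SE; limma, adjusted p = 0.290). All controls exceeded all activated arrays, and activated replicate 3 lay closest to them. The difference was -3.62 without activated replicate 3. Without activated replicate 2 it was -2.32, behind Hmmr, Anln and Kif15, and without activated replicate 1 it was -2.65, behind Kifc1. Kif15, which helps to keep spindle poles apart, was at 6.67, 6.63 and 6.82 in control and 3.79, 3.55 and 4.93 in activated cultures, 6.12-fold lower (limma, adjusted p = 0.175). Its 3 control values had an SD of 0.10, and its lowest control exceeded its highest activated value by 1.70. Kif11, the motor that pushes spindle poles apart, was at 7.46, 7.49 and 7.17 in control and 4.56, 4.27 and 6.32 in activated cultures (5.01-fold lower; limma, adjusted p = 0.304). Here too the control arrays were tightly grouped and activated replicate 3 stood above its group.

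Kif4, a chromosome-bound motor that also shapes the central spindle, was at 7.36, 6.79 and 6.81 in control and 3.90, 4.36 and 5.63 in activated cultures, 5.14-fold lower (limma, adjusted p = 0.252). Kif2c, which depolymerizes microtubules at centromeres, was at 7.01, 7.34 and 6.23 in control and 4.16, 3.87 and 5.64 in activated cultures, 4.93-fold lower (limma, adjusted p = 0.304). Kif20b, which acts in cytokinesis, was at 7.17, 6.69 and 6.76 in control and 4.55, 3.70 and 5.77 in activated cultures, 4.59-fold lower (limma, adjusted p = 0.317). In these 3 genes the groups did not overlap, and the activated group spread more widely than the control group. Kif14, which recruits citron kinase to the midbody, was at 4.60, 4.73 and 5.08 in control and 3.29, 3.17 and 3.96 in activated cultures, with a smaller difference of -1.33 ± 0.28 (SE; limma, adjusted p = 0.290). Kif14 was the 1 member that a filter at the median of gene means removed. The minus-end motor Kifc1 differed by -2.35 ± 0.65 and Kif18a, which limits chromosome oscillation, by -1.67 ± 0.41. Kifc1 has a close relative, Kifc5b, with a probe set of its own, and whether the 2 probe sets are separate in practice was not tested. Kif18b, Kif22 and Kif20a had log2 differences of -1.43, -1.26 and -1.22. The groups overlapped for Kif18b, in which control replicate 1 (5.61) lay below activated replicate 3 (5.95), and for Kif20a, with control replicate 1 at 5.81 and activated replicate 3 at 6.07.

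**Figure D3:**
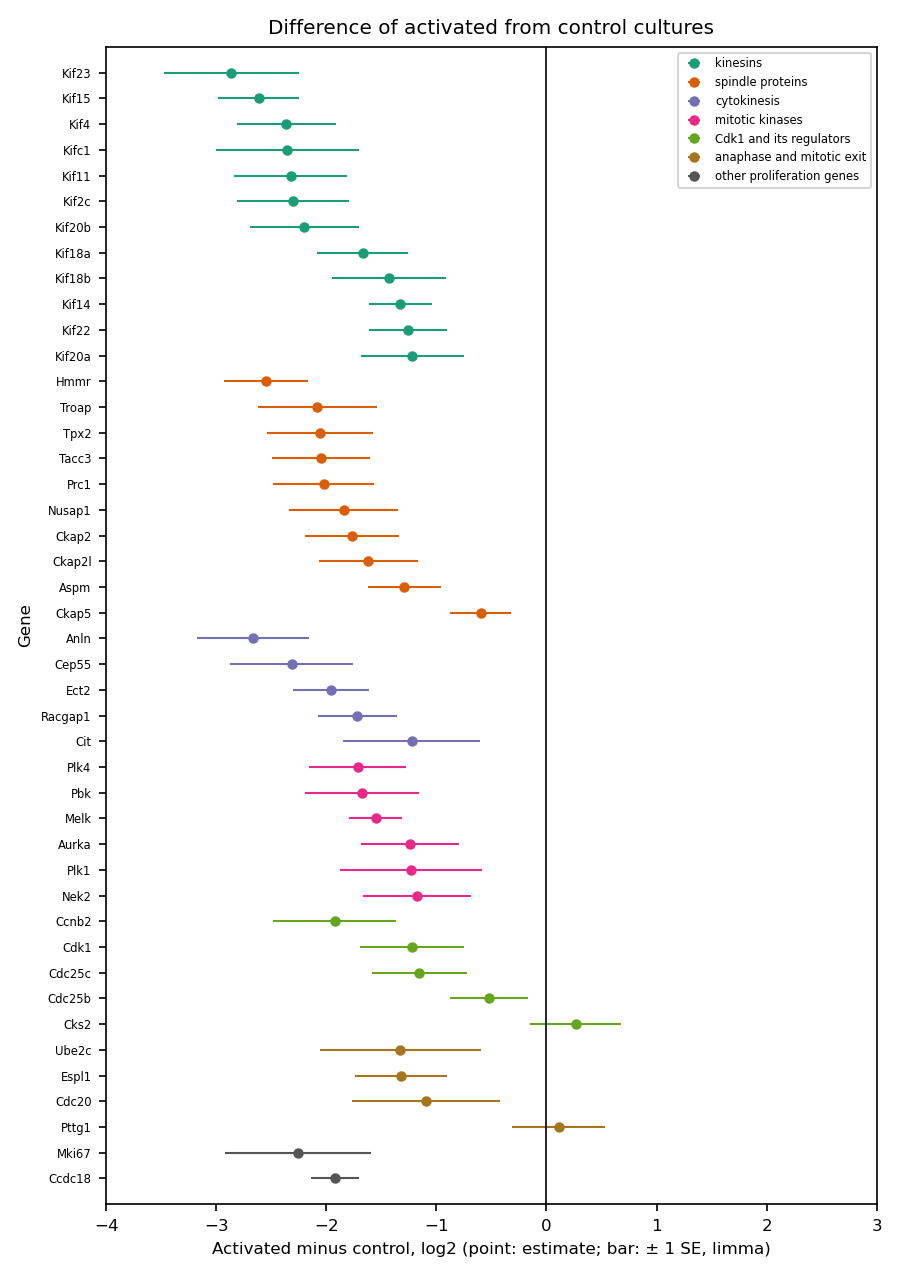
Points are the log2 differences of activated from control cultures for the 44 measured mitotic genes, coloured by role group, and bars are ± 1 standard error from limma. Every kinesin, spindle, cytokinesis and kinase gene lies left of 0, from -2.86 for Kif23 to -0.60 for Ckap5, and Cks2 and Pttg1 lie right of it; Pttg1 turned negative (-0.16) after quantile normalization.

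The 10 spindle-associated proteins were all lower, with a median log2 difference of -1.93. All 10 separated the groups (7.4% of all genes lay lower without overlap). Hmmr, a microtubule-binding protein of the spindle poles, was at 7.77, 7.56 and 6.56 in control and 4.64, 4.38 and 5.23 in activated cultures, 5.85-fold lower (limma, adjusted p = 0.175). Control replicate 3 was the lowest control and still lay above every activated array. Troap, which helps to hold spindle poles together, was at 6.57, 6.57 and 8.02 in control and 4.49, 4.47 and 5.95 in activated cultures, 4.23-fold lower. In both groups replicate 3 was the high one, so that the differences within pairs were nearly equal at -2.07, -2.10 and -2.07. That pattern gave adjusted p = 0.378 without the block and 0.0434 with it (0.0159 to 1.00 over the alternatives). Tacc3, which stabilizes kinetochore fibres together with Ckap5 and clathrin, was at 7.88, 8.63 and 8.62 in control and 6.04, 5.68 and 7.27 in activated cultures, 4.13-fold lower (limma, adjusted p = 0.293). Its partner Ckap5, a microtubule polymerase used by cells in interphase as well, had the smallest difference among the spindle genes, -0.60 ± 0.28 (SE; limma, adjusted p = 0.649). Ckap5 was at 7.53, 7.97 and 7.58 in control and 7.43, 6.66 and 7.20 in activated cultures, so that only 0.097 separated its lowest control from its highest activated array.

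Prc1, which bundles the antiparallel microtubules of the central spindle, was at 7.51, 7.94 and 7.47 in control and 5.56, 4.71 and 6.58 in activated cultures, 4.07-fold lower (limma, adjusted p = 0.318). Tpx2, which activates the kinase Aurka on the spindle, differed by -2.06 ± 0.48, from 7.21 ± 0.44 to 5.15 ± 0.94 (SD, n = 3). Nusap1 and Ckap2, microtubule-stabilizing proteins of the spindle, differed by -1.84 ± 0.49 and -1.77 ± 0.43, and Ckap2l by -1.62 ± 0.45. Aspm, which focuses microtubule minus ends at the poles, differed by -1.29 ± 0.33. These 4 had their lowest control value in replicate 3, and at that number the pair differed by only -0.41 for Nusap1, -0.39 for Ckap2, -0.16 for Ckap2l and -0.29 for Aspm.

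The 5 cytokinesis genes had a median log2 difference of -1.96. Anln, the scaffold that ties actin and myosin to the furrow, was at 8.28, 8.19 and 7.58 in control and 4.77, 4.72 and 6.56 in activated cultures, 6.34-fold lower (limma, adjusted p = 0.252). Ect2, the exchange factor that activates RhoA at the furrow, was at 6.33, 6.90 and 6.16 in control and 4.32, 4.07 and 5.13 in activated cultures, 3.89-fold lower (limma, adjusted p = 0.223). Racgap1, the partner of Kif23 in centralspindlin, was at 6.62, 7.00 and 6.56 in control and 4.83, 4.44 and 5.75 in activated cultures, 3.30-fold lower (limma, adjusted p = 0.279). The groups did not overlap for any of the 3, and in each the value nearest to the controls was activated replicate 3. Cep55, which brings the abscission machinery to the midbody, was at 6.47, 6.31 and 6.28 in control and 3.75, 2.98 and 5.39 in activated cultures (4.98-fold lower; limma, adjusted p = 0.336), with an SD of 0.10 over the controls. Cit, the midbody kinase citron, behaved like Troap in its replicates. It was at 4.79, 4.77 and 6.61 in control and 3.61, 3.68 and 5.22 in activated cultures, with replicate 3 high in both groups, so the groups overlapped while the pairs differed by -1.18, -1.09 and -1.40 (limma, adjusted p = 0.686, and 0.0776 with the block).

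Among the 6 mitotic kinases the median log2 difference was -1.40. The groups separated for Plk4, Melk and Pbk (7.4% of all genes lay lower without overlap). Melk, a kinase of proliferating cells, was at 5.31, 5.59 and 5.47 in control and 3.87, 3.60 and 4.24 in activated cultures, 2.93-fold lower (limma, adjusted p = 0.175). Both groups were tight, with SDs of 0.14 and 0.32. Plk4, which triggers centriole duplication, differed by -1.72 ± 0.44, and Pbk by -1.68 ± 0.52 (SE). The remaining 3 kinases act at mitotic entry and in the centrosome cycle. Their values are given because the groups overlapped, a choice made after the values were seen. Plk1, the polo kinase of mitotic entry and exit, was at 6.99, 8.08 and 6.64 in control and 5.09, 5.51 and 7.42 in activated cultures. Activated replicate 3 exceeded control replicates 1 and 3, while activated replicates 1 and 2 lay below every control (difference -1.23 ± 0.64, adjusted p = 0.692). Aurka, the spindle pole kinase, was at 7.01, 7.74 and 6.16 in control and 5.50, 5.38 and 6.32 in activated cultures, and Nek2, which separates the centrosomes, between 5.83 and 6.30 in control cultures and at 4.38, 4.16 and 6.07 in activated cultures. For Aurka activated replicate 3 was above control replicate 3 alone, and for Nek2 it was above control replicates 1 and 3. In both genes the other activated arrays were below all controls. Aurka differed by -1.24 ± 0.44 and Nek2 by -1.18 ± 0.49.

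Cdk1, the kinase that drives mitotic entry, was at 7.00, 8.68 and 7.61 in control and 5.90, 6.77 and 6.96 in activated cultures. The groups just separated, by 0.048, and Cdk1 was 2.34-fold lower (limma, adjusted p = 0.595). Its cyclin Ccnb2 was at 8.30, 9.74 and 8.37 in control and 6.79, 5.98 and 7.86 in activated cultures, 3.80-fold lower (limma, adjusted p = 0.433), with control replicate 2 well above the other controls. For Ccnb1, the other B-type cyclin of mitosis, the platform annotation used here gave no symbol, and its row was identified by the Entrez number 268697 in the RefSeq gene table. Ccnb1 was at 7.85, 9.10 and 7.57 in control and 6.58, 6.34 and 6.64 in activated cultures, 3.14-fold lower in a fit of all probe sets (limma, adjusted p = 0.346, and 0.138 with the block). Activated replicate 3 was close to its group for Ccnb1, with an SD of 0.16 over the activated arrays. Ccnb1 is not counted among the 44.

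Cdc25c, a phosphatase that activates Cdk1, was at 4.97, 5.09 and 5.26 in control and 3.11, 3.84 and 4.90 in activated cultures and differed by -1.15 ± 0.43 (SE). Its relative Cdc25b was at 5.67, 5.82 and 6.87 in control and 5.33, 5.83 and 5.63 in activated cultures, with control replicate 3 the highest array. The difference was -0.52 ± 0.35 (limma, adjusted p = 0.739) and -0.15 without control replicate 3. Cks2, a small subunit of cyclin-dependent kinase complexes, was one of the pair of members with a higher mean in activated cultures. It was at 4.57, 5.77 and 4.35 in control and 5.59, 4.88 and 5.02 in activated cultures, a difference of 0.26 ± 0.41 (limma, adjusted p = 0.856). Control replicate 2 was the highest of the 6 arrays and the groups overlapped; the sign turned to -0.0088 without control replicate 3.

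The 4 genes of anaphase and mitotic exit had a median log2 difference of -1.21. The groups separated for 1 of them (7.4% of all genes lay lower without overlap). Espl1, separase, which cuts cohesin once securin is gone, was at 5.62, 5.89 and 6.97 in control and 4.44, 4.68 and 5.40 in activated cultures, 2.50-fold lower (limma, adjusted p = 0.479), and the groups did not overlap. Pttg1, securin itself, was at 7.62, 7.50 and 6.86 in control and 7.80, 7.98 and 6.54 in activated cultures. Its groups overlapped almost fully, with activated replicates 1 and 2 the highest arrays and activated replicate 3 the lowest. The difference was 0.11 ± 0.42 (limma, adjusted p = 0.940) and became negative when arrays were normalized again, at -0.16 with quantiles, -0.19 with cyclic loess and -0.040 after scaling the spread. Cdc20, the activator of the anaphase-promoting complex, was at 6.92, 8.42 and 7.28 in control and 5.60, 5.80 and 7.95 in activated cultures. Ube2c, the ubiquitin-conjugating enzyme that serves that complex, was at 8.58, 9.86 and 7.04 in control and 6.59, 6.73 and 8.17 in activated cultures. For Cdc20 and Ube2c activated replicates 1 and 2 lay below every control, whereas activated replicate 3 lay above 2 of the 3 controls for Cdc20 and above 1 for Ube2c. Their differences were -1.09 ± 0.67 and -1.33 ± 0.73 (limma, adjusted p = 0.726 and 0.696); without activated replicate 3 they were -1.84 and -1.83.

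Mki67, the chromosome surface protein used as a marker of dividing cells, was at 8.28, 8.94 and 8.21 in control and 5.85, 4.99 and 7.79 in activated cultures, 4.79-fold lower (limma, adjusted p = 0.433). The controls were close together and the activated arrays ranged over more than 2 log2 units. Ccdc18, a coiled-coil protein, had the smallest p of the set. It was at 5.52, 5.22 and 5.44 in control and 3.46, 3.28 and 3.67 in activated cultures, 3.79-fold lower, with a gap of 1.55 between the groups. Its adjusted p was 0.131 without the block and 0.0486 with it (0.0178 to 0.662 over the alternatives).

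Within numbered pairs the set did not move by one amount. The members' median log2 difference was -1.85 in pair 1, -2.51 in pair 2 and -0.82 in pair 3, against -0.07, -0.03 and -0.09 over all genes. Lower values were found for 42 members in pair 1, 42 in pair 2 and 38 in pair 3 (55.6%, 53.4% and 57.9% of all genes), and for 36 in each of the 3 pairs (25.0% of all genes). Activated replicate 3 had the highest activated value in 38 of 44 members, compared with 31.8% of all genes, and activated replicate 2 had the lowest in 32, compared with 42.7% of all genes. The 6 members higher in pair 3 were Aurka, Plk1, Nek2, Cks2, Cdc20 and Ube2c. Ube2c differed by -1.99 and -3.13 in pairs 1 and 2 and by 1.13 in pair 3, Plk1 by -1.90, -2.57 and 0.77, and Cdc20 by -1.33, -2.62 and 0.67. At the other end, Troap, Ccdc18, Cit, Espl1 and Kif14 kept to within 0.45 log2 units over the 3 pairs. Each pair holds 1 culture a group, so the difference between pairs has no replicate and was not tested.

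The controls also differed among themselves. Control replicate 3 was the lowest control for 25 members (31.0% of all genes), among them Hmmr, Nusap1, Ckap2l, Kif18a, Aurka, Plk4 and Ube2c. It was the highest control for 9 (34.8% of all genes), namely Kif14, Kif15, Kif18b, Kif22, Troap, Cit, Cdc25b, Cdc25c and Espl1. Control replicate 2 was the highest for 22 members (25.6% of all genes), with the widest leads in Pbk (6.28, 7.82 and 5.69), Ccnb2 and Ube2c.

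**Figure D4:**
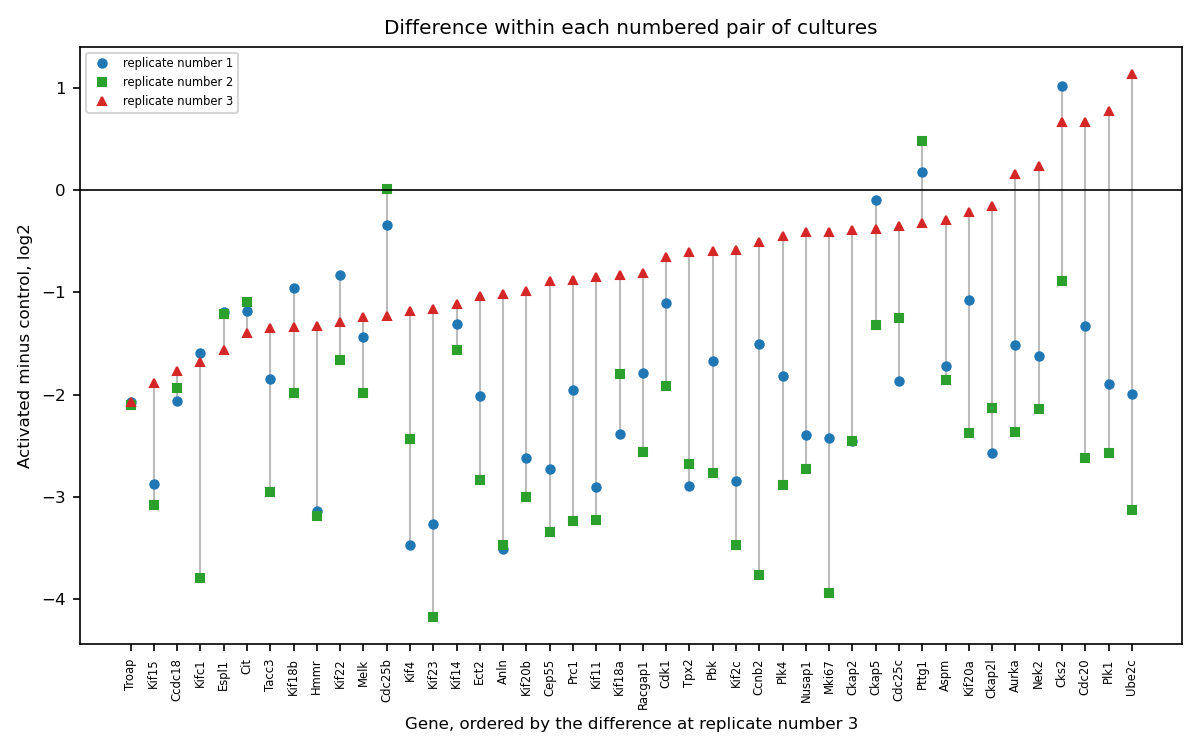
For each of the 44 measured mitotic genes the activated minus control log2 difference is shown for the arrays numbered 1 (circles), 2 (squares) and 3 (triangles), with genes ordered by the difference at number 3 and a grey line from the lowest to the highest. At number 3 most genes lie between -2.07 (Troap) and 0, and Aurka, Nek2, Cks2, Cdc20, Plk1 and Ube2c lie above 0.

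Other genes of the mitotic machinery were compared from lists that are not part of the set. Centromere and kinetochore genes had 39 of 40 members lower (59.7% of all genes were) with a median log2 difference of -1.38. DNA replication genes had 30 of 32 lower with -0.80. By pair, 36, 38 and 32 of the centromere and kinetochore genes were lower at numbers 1, 2 and 3. For the replication genes these counts were 27, 31 and 19 (55.6%, 53.4% and 57.9% of all genes were lower). At an unadjusted p under 0.05 these lists had 25 and 14 lower members and 0 higher (3.42% of all genes were lower and 4.44% higher). After adjustment over all genes 0 passed in limma, with Ska3 the single one to fall with the block. Ska3, of the kinetochore complex that holds microtubule ends, was at 6.32, 6.10 and 5.90 in control and 4.36, 4.23 and 4.01 in activated cultures (-1.90 ± 0.22, SE; limma, adjusted p = 0.131, and 0.0479 with the block). The centromere protein Cenpu differed by -1.71 ± 0.25. Cdc6, which loads the replicative helicase, differed by -1.46 ± 0.25, and Pola1, the catalytic subunit of DNA polymerase alpha, by -1.72 ± 0.32. The other 5 lists had medians between -0.30 and 0.47. The 24 measured kinesins of interphase transport had a median of 0.14, with 0 lower and 4 higher at an unadjusted p under 0.05, led by Kif1b, a cargo motor (1.19 ± 0.32, SE), and Kif26b (0.62 ± 0.19). The 17 APC/C genes had a median of 0.12, and the only one below an unadjusted p of 0.05 was Fbxo5, which encodes the APC/C inhibitor Emi1 and not a subunit. Fbxo5 was at 8.07, 8.79 and 8.09 in control and 6.08, 5.60 and 7.01 in activated cultures (-2.09 ± 0.40; limma, adjusted p = 0.252). The next in that list, the subunit Anapc7, differed by 0.64 ± 0.41.

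Augmin and gamma-tubulin complex genes, which nucleate spindle microtubules, had 11 of 17 members lower (59.7% of all genes were) and a median of -0.30. The augmin subunits Haus6 (-0.83 ± 0.27, SE) and Haus3 (-0.91 ± 0.31) were below an unadjusted p of 0.05. Among 15 phosphatases of mitotic exit and Cdk1 inhibitory kinases the median was 0.29. Mastl, the Greatwall kinase that holds the phosphatase PP2A in check during mitosis, differed by -1.78 ± 0.46, and its substrate Ensa by 0.80 ± 0.31 in the other direction. The abscission machinery had 15 of 16 members higher (9383 of all 23279 genes were), with a median of 0.47. Within pairs 1, 2 and 3, however, 6, 5 and 5 members were lower. Just 4 were higher in each of the 3 pairs (3858 of all genes were). The list mean was 6.57, 6.91 and 5.94 in control replicates 1, 2 and 3. At an unadjusted p under 0.05 2 members were higher, the microtubule-severing enzyme Spast (1.50 ± 0.35) and Chmp7 (0.72 ± 0.29). No gene of these lists passed over all genes in limma, and none of the differences between lists was tested.

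**Figure D5:**
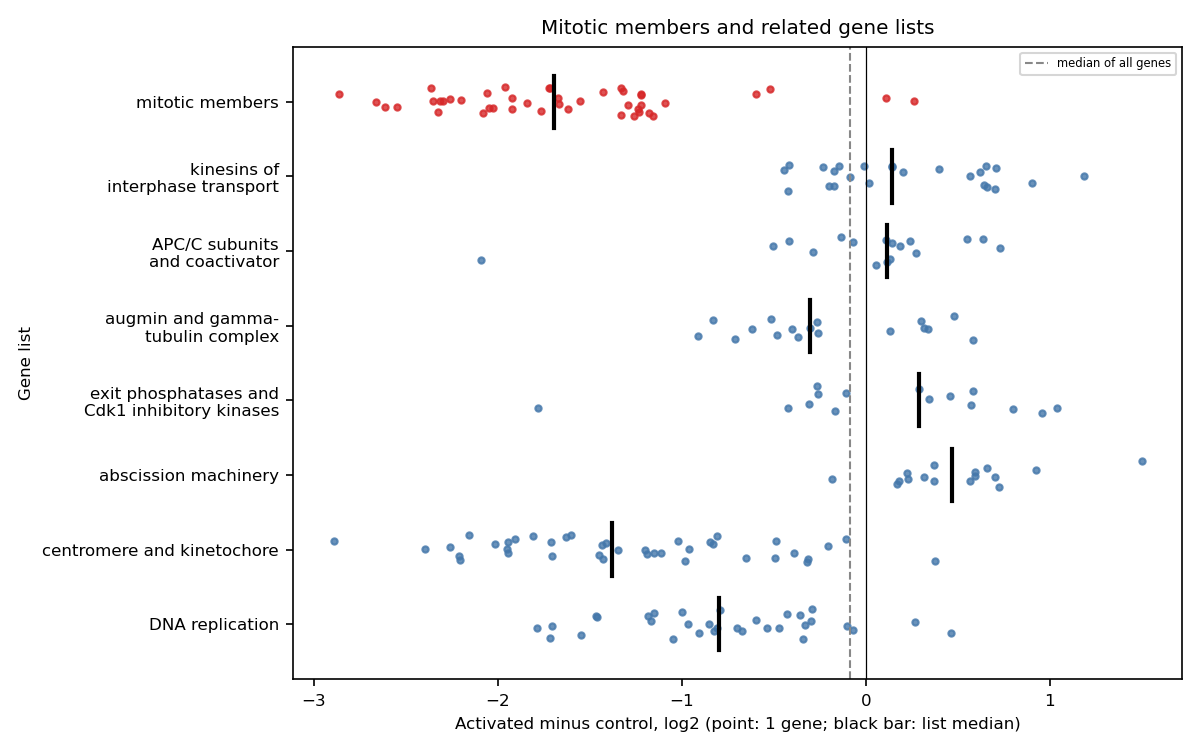
Each point is the log2 difference of activated from control cultures for 1 gene, with the 44 mitotic genes in red and 7 related lists in blue; black bars are list medians and the dashed line is the median of all genes (-0.08). The mitotic, centromere and DNA replication lists lie to the left, with medians of -1.70, -1.38 and -0.80, and the other 5 have medians between -0.30 and 0.47.

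Markers of differentiation were mostly higher in activated cultures. Of 10 markers of differentiating myocytes, 9 were higher in activated cultures in each of the 3 pairs (3858 of all 23279 genes were). The mean over the list was 7.89, 8.08 and 6.78 in control and 9.08, 9.67 and 8.66 in activated cultures. Actn2, a Z-disc protein, was the 1 marker that rose with the block (limma, adjusted p = 0.0434). In activated cultures the list mean was highest in replicate 2, where most mitotic genes were lowest. It was lowest in replicate 3, where most mitotic genes were highest. Single markers differed in this. Myh3, Myh8, Tnnt3, Tnni1 and Actn2 were lowest in activated replicate 3, but Myog, Mymk and Mymx in replicate 1 and Ttn and Ckm in replicate 2. In control cultures the list mean was lowest in replicate 3, where 25 mitotic genes were lowest too. By pair, the list mean was higher in activated cultures by 1.19, 1.59 and 1.88 at numbers 1, 2 and 3. The median difference of the list was 0.95, 1.71 and 1.68. The pair with the smallest mitotic difference had the largest marker difference by the mean, but not by the median. The counts of lower markers that follow stand beside 59.7% of all genes lower. Leukocyte markers had 7 of 8 members lower, with list means of 3.80 to 4.46 in control and 3.60 to 3.92 in activated cultures. Endothelial markers had 7 of 8 lower, with 3.32 to 3.61 and 3.06 to 3.32. Below the median of gene means, 4.28, lay 5 of the 8 leukocyte, 7 of the 8 endothelial, 3 of the 7 fibroblast, 3 of the 7 smooth muscle and pericyte and 2 of the 4 neural markers. Of the defining markers, Ptprc (2.47 ± 0.10 in control, SD, n = 3), Pecam1 (2.96 ± 0.31) and Pdgfra (3.08 ± 0.34) were among these, whereas the leukocyte marker Cd68 (5.75 ± 1.37) and the fibroblast marker Col3a1 (7.09 ± 0.64) lay above it. Fibroblast list means were 4.19 to 4.37 in control and 4.00 to 4.33 in activated cultures, with 5 of 7 lower, and smooth muscle and pericyte means 5.29 to 5.63 and 5.24 to 5.76, with 4 of 7 lower. These list means average over genes that went both ways. Rgs5, a pericyte marker, was 3.44-fold lower in activated cultures (limma, adjusted p = 0.473), with pair differences of -2.45, -2.97 and 0.071. Fbln1, from the fibroblast list, was 2.16-fold lower (limma, adjusted p = 0.404), and Vcam1, from the myoblast list, 2.60-fold lower (limma, adjusted p = 0.400). In the other direction Acta2 differed by 1.08 ± 0.39, Thy1 by 1.17 ± 0.41 and Tubb3 by 3.16 ± 0.74 (SE). Neural and Schwann cell list means were 5.47 to 6.24 and 6.43 to 6.78, with 2 of 4 lower. The part of these other cell types and of the degree of differentiation in the mitotic differences was not tested.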

How the data were processed

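Each of the 6 arrays was hybridised with labelled target from 1 culture (input 100 ng RNA, per the labels). Deposited values are log2 levels per probe set, and RMA and Partek are named in the submitters' processing notes, with neither version nor role; the array's design and any calls of detection are not stated in the labels. Of 24479 probe sets 23281 had 1 symbol in the platform annotation, 0 several and 1198 none. For symbols with several probe sets (2), the brighter was kept, leaving 23279 genes, of which 23155 had the same Entrez number and symbol in RefSeq.

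limma 3.58.1 (R 4.3.3) fitted group to all genes, two-sided, with Benjamini-Hochberg adjustment, and no filter. The fit was run on simulated independent noise with planted differences, and only the recovery of their mean size was checked. The simulation held no replicate effect, so it does not give the error rates in these data. Both groups' titles carry replicate numbers 1 to 3, and deviations of same-numbered arrays from their group means correlated at 0.38, 0.49 and 0.45. Since each was above 0.1, the number was taken to pair the arrays and was also used as a block. Arrays of different number were not compared in this way, so the correlations do not show that the cultures were paired. Named in full were members past the block, the 15 with the smallest p and the 3 with the highest differences; from other lists, the 2 with the smallest p. Genes named beyond this rule were chosen after their values were seen. Members and lists were chosen with earlier results of these data known.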

Additional observations from a re-analysis of the deposited data

How the results depend on the processing

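The median log2 difference of the 44 members was -1.70 as deposited. It ran from -2.22 (without pair 3, with the replicate block) to -1.35 (without pair 2, with the block) over 19 alternatives. Each alternative differed from -1.70 by less than 0.70, the SD of the members' median over the activated arrays. Over the control arrays that SD was 0.14, and both ends of the range differed from -1.70 by more. In every setting in which they were tested, 42 members stayed negative. The count of members past an adjusted p of 0.05 was 0 as deposited, 2 with the replicate block, 34 without pair 3 with the block, 0 to 6 when a single array was left out (6 without activated replicate 3) and 0 under the other alternatives, among them quantile normalization with the replicate block. The block changed the call of no member other than Troap and Ccdc18. Members with an unadjusted p under 0.05 numbered 25 (without pair 1 with the block, beside 1047 of all genes lower and 1775 higher) to 40. The 40 came without pair 3 with the block (1466 and 2062) and without activated replicate 3 (731 and 1259). Members with groups that did not overlap numbered 28 (median centring, beside 1090 of all genes below and 1892 above) to 42. The 42, 41 below and 1 above, came in the settings of the 40, beside 4215 and 3482 and 3253 and 2568. Groups separate more easily with fewer arrays. Centring each array on its median moved the median of all genes from -0.08 to 0.04 and scaling the spread moved it to 0.08; the members' medians were then -1.57 and -1.68. With 1 array left out Cks2 ran from -0.0088 to 0.70 and Pttg1 from -0.16 to 0.56. The sign of Cks2 turned without control replicate 3 (-0.0088) and without pair 1 with the block (-0.11). That of Pttg1 turned after quantile normalization with or without the block (-0.16), cyclic loess (-0.19) and scaling (-0.040), without control replicate 3 (-0.12), activated replicate 1 (-0.067) or activated replicate 2 (-0.16), and without pair 2 with the block (-0.072). The causes were not tested. The arrays hold no detection calls, so whether the lowest values exceed background is not known, and 3 cultures a group limit the precision.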
